A study of Mus musculus with 6 samples.

Results

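The nuclear genes for the subunits of the mitochondrial respiratory chain were followed in MC3T3-E1 cells, an established line of mouse calvarial pre-osteoblasts that forms mineralized matrix in osteogenic medium. Members were the protein-coding genes whose symbols mark them as subunits of complexes I to V (Nduf, Sdh, Uqcr, Cyc1, Cox4 to Cox8 and Atp5 symbols), which gave 87 of the 54532 genes in the table. Total RNA was sequenced from cells in osteogenic medium alone (control) and from cells in osteogenic medium that also contained metformin, with 3 samples in each group. Both groups came from the same line and had the osteogenic medium in common. Induction lasted 3 days and metformin was at 0.2 mM, as the methods and not the labels give them. The samples are described as biological replicates in the methods, whereas the sample labels do not say that they were separate cultures, so p-values measure the spread between these samples. In bulk RNA, fewer cells that carry a transcript and less of it per cell cannot be told apart.

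The respiratory chain passes electrons from NADH through complex I and from succinate through complex II to ubiquinone, then through complex III and cytochrome c to complex IV, which reduces oxygen. Complexes I, III and IV pump protons out of the matrix, and complex V, the ATP synthase, uses their return to make ATP. Most subunits are encoded in the nucleus and imported, while a small number in complexes I, III, IV and V are encoded in the mitochondrial DNA. Metformin is a biguanide and a glucose-lowering drug, and inhibition of complex I is among its known actions.

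The depth was 18399861 to 20652437 reads per sample in the controls and 19256672 to 22111790 with metformin, recovered from the deposited values. Those values are FPKM, the reads of a gene scaled by its length and by a library size. The recovered library size was not the total of recovered reads (19655718 against 18792236 in control replicate 3, 18260074 against 18399861 in control replicate 1). Groups were compared by limma with an intensity trend on log2(FPKM + 1), fitted to all 12681 genes whose mean reached 0.5 FPKM, with Benjamini-Hochberg adjustment and a threshold of 0.05. Fold changes are metformin minus control on that log2 scale, which understates changes of low genes. Control replicate 1 stood apart from the other samples, so results are also given without it. All 8 osteoblast markers were tested and their summed level was 10000 to 11800 FPKM in the controls and 6790 to 7180 FPKM with metformin, with Spp1 and Ibsp lower, Col1a1 and Col1a2 higher, and Runx2, Sp7, Bglap and Alpl not called. Summed markers of adipocytes, chondrocytes and myeloid cells were at most 3.08, 11.9 and 2.15 FPKM in any sample, and those of muscle and endothelium at most 0.427 and 0.121. Cd68 made up most of the myeloid sum and was lower with metformin (1.17 against 2.04 FPKM, adjusted p = 0.0102), while Ptprc and Adgre1 were at or near 0.

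As the subunits share known activators, RefSeq promoter windows (GRCm38.p6, 250 bases before to 50 after the start) were searched on both strands for 4 motifs, TGCGCA (the NRF1 core), CCGGAAG (the ETS motif that GABPA binds), AAGGTCA (the core of the ERR site) and AAGATGG (the YY1 core). No one of these motifs contains another. Of the 79 tested members, 65 had a window. The NRF1 core was in 27.1% of the 70 member windows, in 7.76% of all 32851 windows and in 14.0% of the windows of tested genes. The GABPA motif was in 22.9% of the member windows and 18.3% of those of tested genes, the ERR core in 11.4% and 2.98%, and the YY1 core in 15.7% and 7.32%. The windows of 2 members are shown, as the 250 bases before the start, 5′ to 3′ on the strand of the gene. Uqcr10 is shown because it had the lowest adjusted p of all members, and Atp5l because it held 3 of the 4 motifs, a choice made after the matches were known. Sdhd held 3 as well and was not among the members considered for printing. Ndufs7, Ndufa6 and Atp5f1 were considered too, but their 250 bases overlapped an annotated untranslated region and were left out. Capitals mark the motif matches.

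Uqcr10, chr11:4704345-4704594, minus strand: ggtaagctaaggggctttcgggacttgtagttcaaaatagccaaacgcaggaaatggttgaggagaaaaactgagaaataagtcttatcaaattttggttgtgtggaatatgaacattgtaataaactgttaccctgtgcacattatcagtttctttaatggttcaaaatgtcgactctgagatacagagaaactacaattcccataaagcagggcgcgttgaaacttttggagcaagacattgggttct
Atp5l, chr9:44920743-44920992, minus strand: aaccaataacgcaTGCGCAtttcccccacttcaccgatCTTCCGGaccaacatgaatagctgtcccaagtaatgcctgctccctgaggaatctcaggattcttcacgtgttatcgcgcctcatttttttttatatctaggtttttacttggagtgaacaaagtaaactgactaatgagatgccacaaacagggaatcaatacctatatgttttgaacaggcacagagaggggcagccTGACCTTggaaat

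Counted from the RefSeq start, the first base of the match in the Atp5l window was at -237 for the NRF1 core, at -212 for the GABPA motif and at -13 for the ERR core, the last 2 on the opposite strand, and the GABPA motif matched again at 25, past the end of the printed stretch. The Uqcr10 window held none of the 4 motifs. The genes of the factors themselves were measured in the same samples. Nrf1 was at 3.22, 3.24 and 3.40 FPKM in the controls and 3.28, 3.87 and 3.01 FPKM with metformin, and the groups overlapped (log2 fold change 0.03, adjusted p = 0.869). Gabpa (0.19, adjusted p = 0.133), Yy1 (-0.17, adjusted p = 0.161) and Esrra, which encodes an ERR receptor (0.35, adjusted p = 0.536), were not called either, and Esrra was at 8.35 FPKM in control replicate 1 against 21.3 to 24.7 in the other samples. Without that replicate the log2 fold change of Esrra was -0.11.

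With all samples in the fit, few subunit genes were called. Of the 87 members, 79 reached the minimum level, and among these 0 were called higher and 2 (2.53%) lower, namely Ndufs7 of complex I and Uqcr10 of complex III. Over all tested genes 13.2% were called higher and 9.28% lower. At an unadjusted p under 0.05 by limma, 4 members were higher and 5 lower (together 11.4%, against 35.8% of all tested genes), and voom, which weights recovered reads, also called 0 higher and 2 lower, with 6 higher and 5 lower at an unadjusted p under 0.05. The log2 fold changes of the members lay between -0.45 (Ndufb9) and 0.80 (Atp5k) with a median of 0.09, and 49 of the 79 were positive. The median absolute log2 fold change was 0.17 for the members and 0.23 for all tested genes. None of the 79 members had a log2 fold change beyond 1 in either direction, as 681 of all tested genes (5.37%) did. The 95% interval of the fold change lay within -1 and 1 for 72 members (91.1%, against 84.2% of all tested genes) and within -0.5 and 0.5 for 34. For the other 45 members these data do not bound the change that closely.

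**Figure D1:**
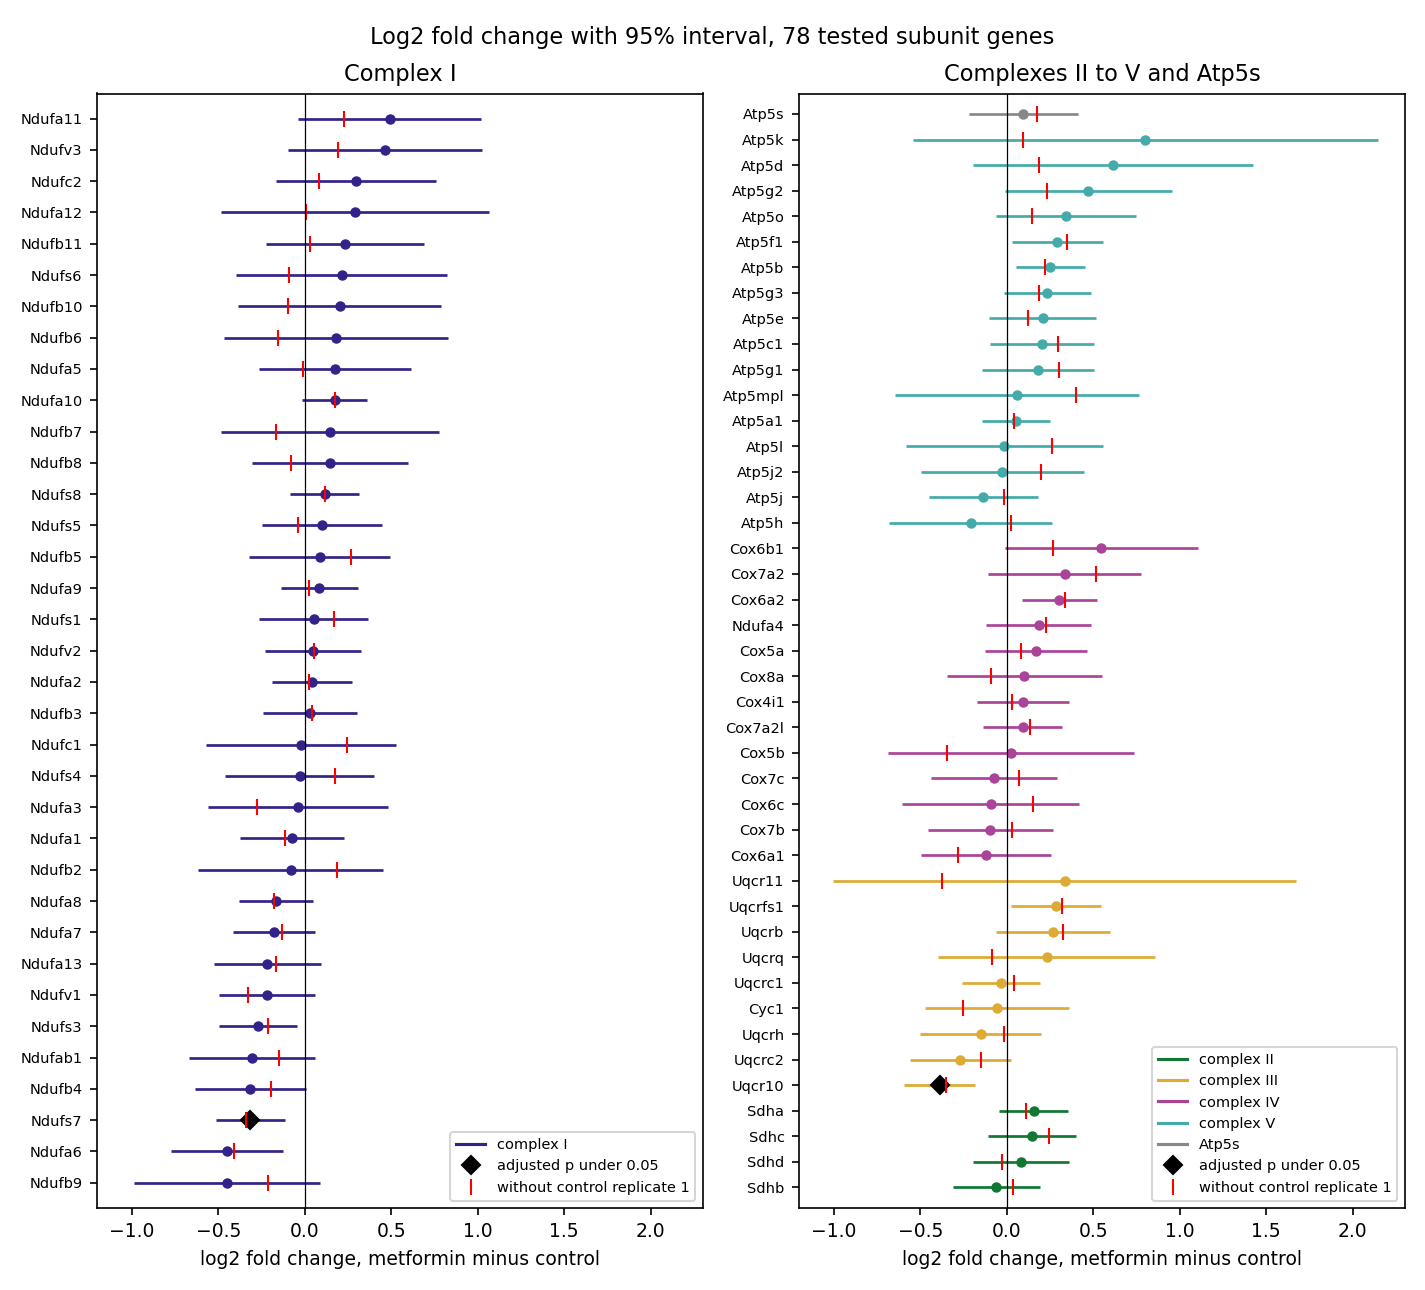
Log2 fold change (metformin minus control, log2(FPKM + 1) scale) of 78 tested subunit genes, complex I on the left and complexes II to V with Atp5s on the right, with lines for 95% intervals, diamonds for an adjusted p under 0.05 and red ticks for the fit without control replicate 1. Ndufs7 and Uqcr10 carry the diamonds, and Uqcr11 and Atp5k have the widest intervals.

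Summed over the members, the level was 3906, 4720 and 4083 FPKM in control replicates 1 to 3 and 4575, 4389 and 4307 FPKM in metformin replicates 1 to 3. The groups overlapped, and the mean with metformin was 1.04 times that of the controls. The 13 subunits encoded in the mitochondrial DNA, the partners of these proteins in the same complexes, summed to 77731, 62882 and 46110 FPKM in the controls and 20425, 21116 and 23358 FPKM with metformin, 0.348 times the control mean. Of these 13 genes, 11 were called lower, mt-Co3 (adjusted p = 0.0572) and mt-Atp8 (adjusted p = 0.164) were not, and all 13 were called lower without control replicate 1. The ratio of mitochondrially to nuclear encoded summed FPKM was thus 19.9, 13.3 and 11.3 in the controls and 4.46, 4.81 and 5.42 with metformin, without overlap. Nuclear subunits took 0.651% to 0.735% of all reads in every sample, so most of the change in the ratio came from the mitochondrially encoded genes, whose share of reads was 6.21% to 9.66% in the controls and 2.61% to 3.02% with metformin. The 13 genes entered that sum unevenly, from mt-Co1 at 17660 to 29750 FPKM in the controls down to mt-Atp8 at 0.537 to 10.8. Near-identical copies were searched for the nuclear members only, so the sum and the ratio carry no such check.

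**Figure D2:**
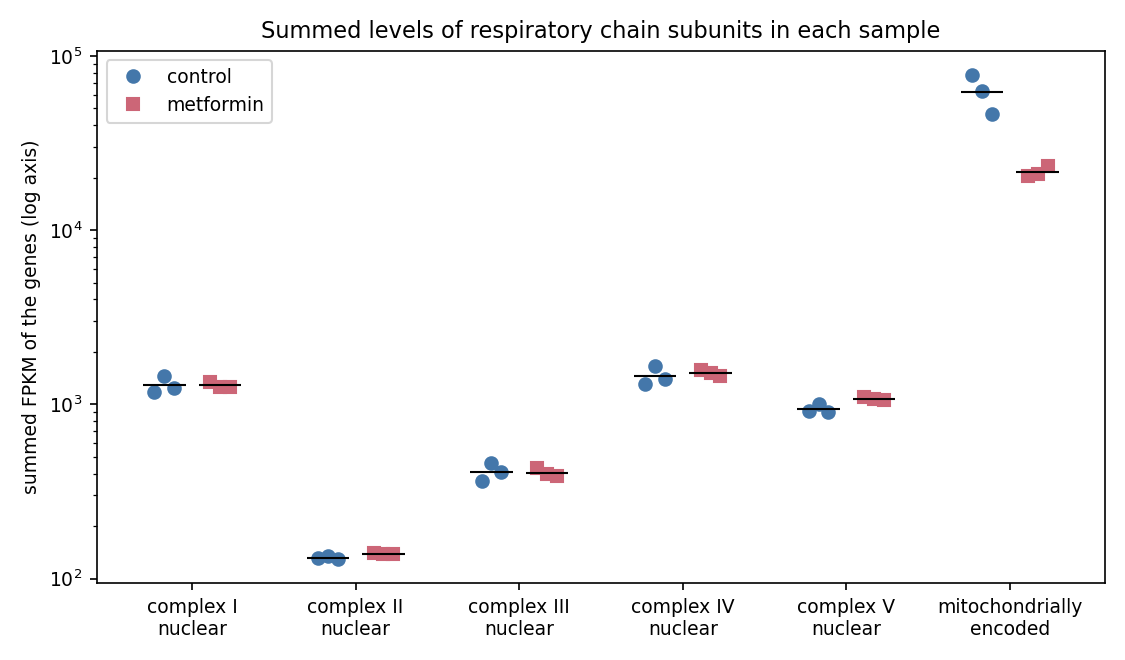
Summed FPKM (log axis) of the nuclear subunit genes of each complex and of the 13 mitochondrially encoded subunits, with a point per sample and a line at each group mean. Group means of each nuclear set differ by at most 1.14 times (complex I means 1295 and 1285 FPKM), whereas the mitochondrially encoded sum is 62241 FPKM in the controls and 21633 with metformin.

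Complex I, which oxidizes NADH, had 36 tested members with a median log2 fold change of 0.04, of which 0 were called higher and 1 lower. Ndufs7 encodes a core subunit that holds the last iron-sulphur cluster before ubiquinone. It lies at chr10:80249121-80256794 on the plus strand and was at 36.0, 39.3 and 36.8 FPKM in the controls and 31.5, 28.5 and 29.5 FPKM with metformin, on 988 to 1416 reads. The groups did not overlap, and the log2 fold change was -0.31 (standard error 0.08, adjusted p = 0.0392). When each of the 6 samples was removed in turn, the call stood in 1 refit, the one without control replicate 1, and the fold changes of the 6 refits were between -0.35 and -0.28. With a correction for GC content the fold change was larger in size (-0.40) and the adjusted p was 0.0674.

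With all samples and no GC correction, the other core subunits of complex I gave smaller or less certain differences than Ndufs7. Ndufs3, also of the core arm in the matrix, was at 22.6, 20.7 and 19.1 FPKM against 16.1, 17.8 and 17.4, without overlap (-0.27, adjusted p = 0.0850), and Ndufv1, which binds NADH, was at 33.6, 42.7 and 42.4 FPKM against 34.5, 34.7 and 31.9 (-0.22, adjusted p = 0.227). The iron-sulphur subunits Ndufs8 (0.12, adjusted p = 0.368), Ndufv2 (0.05, adjusted p = 0.814) and Ndufs1 (0.05, adjusted p = 0.818) had positive values. For Ndufs1 the listed gene length of 8086 bases is far above the 2661 bases of its longest transcript and it overlaps Eef1b2 on the opposite strand, while the sources used here do not say whether counting used strand, so its level of 4.398 to 6.258 FPKM is uncertain. The median over the 7 core subunits was -0.22 and that over the 29 accessory subunits 0.08. Without control replicate 1 these medians were -0.21 and -0.04, so the sign of the accessory median rested on that library. In that fit Ndufv1 (-0.33, adjusted p = 0.0054) and Ndufs3 (-0.21, adjusted p = 0.0456) were called lower too, as were 20.4% of all tested genes. Of the 7 core subunits 0 were called higher there. Ndufv1 was also called lower with the GC correction (-0.28, adjusted p = 0.0131).

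Among the accessory subunits of complex I, Ndufa6 came closest to a call. It was at 17.6, 19.3 and 13.4 FPKM in the controls and 12.0, 11.6 and 12.0 FPKM with metformin, without overlap (-0.45, standard error 0.14, adjusted p = 0.0572). Ndufb9 had the lowest fold change of all members (-0.45), yet its controls were at 42.1, 29.7 and 21.2 FPKM and the last of these was below all 3 metformin samples (21.8, 21.4 and 21.6), so the groups overlapped (adjusted p = 0.204). Control replicate 1 was its highest sample, and without it the value was -0.21. Ndufa11, at 20.96, 39.12 and 35.27 FPKM against 43.7, 42.1 and 45.1, had the highest fold change of the complex (0.49, adjusted p = 0.164), and its lowest sample was control replicate 1. Ndufab1, the acyl carrier protein of mitochondria, was at 2.12 to 4.08 FPKM, but its processed pseudogenes Gm4459 and Ndufab1-ps are 99.8% and 99.4% identical to it over the aligned bases and held 27.4% and 22.1% as many reads, so its level is uncertain. The same holds for Ndufa12, whose pseudogene Gm15920 held 50.02% as many reads.

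Complex II, which is both succinate dehydrogenase and an enzyme of the citric acid cycle, has all of its subunits encoded in the nucleus. Its 4 genes had summed levels of 131, 135 and 129.5 FPKM in the controls and 140.5, 139 and 137 FPKM with metformin, without overlap, and 0 were called. Sdha, the flavoprotein, was at 24.9, 26.7 and 27.7 FPKM against 30.4, 29.9 and 28.3, higher in every metformin sample but not called (0.16, adjusted p = 0.231). Sdhb, the iron-sulphur subunit (-0.06, adjusted p = 0.726), and the membrane anchors Sdhc (0.14, adjusted p = 0.382) and Sdhd (0.08, adjusted p = 0.652) overlapped between groups. All 4 intervals lay within -0.5 and 0.5. Without control replicate 1, Sdhc was called higher (0.25, adjusted p = 0.00976).

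Complex III, which passes electrons from ubiquinol to cytochrome c, had 9 tested members with a median log2 fold change of -0.03, of which 0 were called higher and 1 lower. Uqcr10 encodes a small accessory subunit. At chr11:4701973-4704342 on the minus strand, it was at 45.7, 43.4 and 41.4 FPKM in the controls and 32.6, 34.9 and 31.5 FPKM with metformin, on 358 to 531 reads. Every control was above every metformin sample, and the log2 fold change was -0.39 (standard error 0.09, adjusted p = 0.0203). With each sample removed in turn, the call stood in 2 of 6 refits, those without control replicates 1 and 3, and it stood with the GC correction (adjusted p = 0.0167), and the fold changes of the 6 refits were between -0.43 and -0.35. Of the catalytic subunits, the Rieske protein gene Uqcrfs1 was at 43.0, 44.5 and 36.4 FPKM against 51.3, 53.4 and 46.7, higher without overlap (0.29, adjusted p = 0.111), and Cyc1, cytochrome c1, was at 29.4, 45.3 and 44.8 FPKM against 40.2, 36.4 and 36.3 (-0.06, adjusted p = 0.850). The core proteins Uqcrc1 (-0.03, adjusted p = 0.849) and Uqcrc2 (-0.27, adjusted p = 0.166) were not called, though Uqcrc2 was lower in every metformin sample.

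Complex IV, cytochrome c oxidase, has several subunits with tissue-specific isoforms, and most of its isoforms of heart and skeletal muscle, lung or testis, though not Cox6a2, were below the minimum. Of its 20 members 13 were tested, with 0 called in either direction and a median log2 fold change of 0.09. The subunits that assemble around the mitochondrially encoded core, Cox4i1 (136, 172 and 142.5 FPKM against 165, 156 and 158), Cox5a (0.17, adjusted p = 0.375) and Cox5b (0.02, adjusted p = 0.963), overlapped between groups. On the listed gene lengths Cox8a had the highest mean level of all members (380 FPKM). It was at 278, 466 and 368 FPKM in the controls and 406, 392 and 370 FPKM with metformin, which overlapped (0.10, adjusted p = 0.741). That rank is uncertain, as Atp5b of complex V (196 FPKM) has a listed length of 4237 bases and a longest transcript of 1916. Ndufa4, first assigned to complex I by name and placed here with complex IV, was at 97.4, 103 and 76.7 FPKM against 107, 101 and 105 (0.19, adjusted p = 0.344).

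Within complex IV, 1 isoform of most pairs held nearly all of the level. Cox4i1 was at least 99.8% of the FPKM of its pair in every sample, with 0 to 5 reads per sample for Cox4i2, the isoform of lung. The heart and muscle isoforms Cox7a1 (0 to 8 reads) and Cox8b (0 reads in every sample) and the testis isoforms Cox6b2 (0 to 3 reads), Cox7b2 (0 to 9 reads) and Cox8c (0 reads) fell below the minimum, as did Ndufa4l2 (0 to 10 reads). A count of 0 allows up to 3 reads per library, which for Cox8b is 0.456 FPKM and for Cox8c 0.359 FPKM, and such limits cover counting error only. Cox6a2, the muscle form of its pair, was the only one of these to be tested. It was at 2.42, 2.03 and 2.32 FPKM in the controls and 2.97, 2.83 and 3.25 FPKM with metformin, on 29 to 43 reads, higher in every metformin sample but not called (0.30, adjusted p = 0.0564). At 0.581% to 1.25% of the Cox6a FPKM it remained a trace beside Cox6a1. Cox7a2l, which takes part in respiratory supercomplexes, held 68.2% to 76.5% of the Cox7a FPKM, Cox7a2 most of the rest, and Cox6b1 was at 54.0, 103 and 91.0 FPKM against 121, 119 and 111 (0.55, adjusted p = 0.145).

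**Figure D3:**
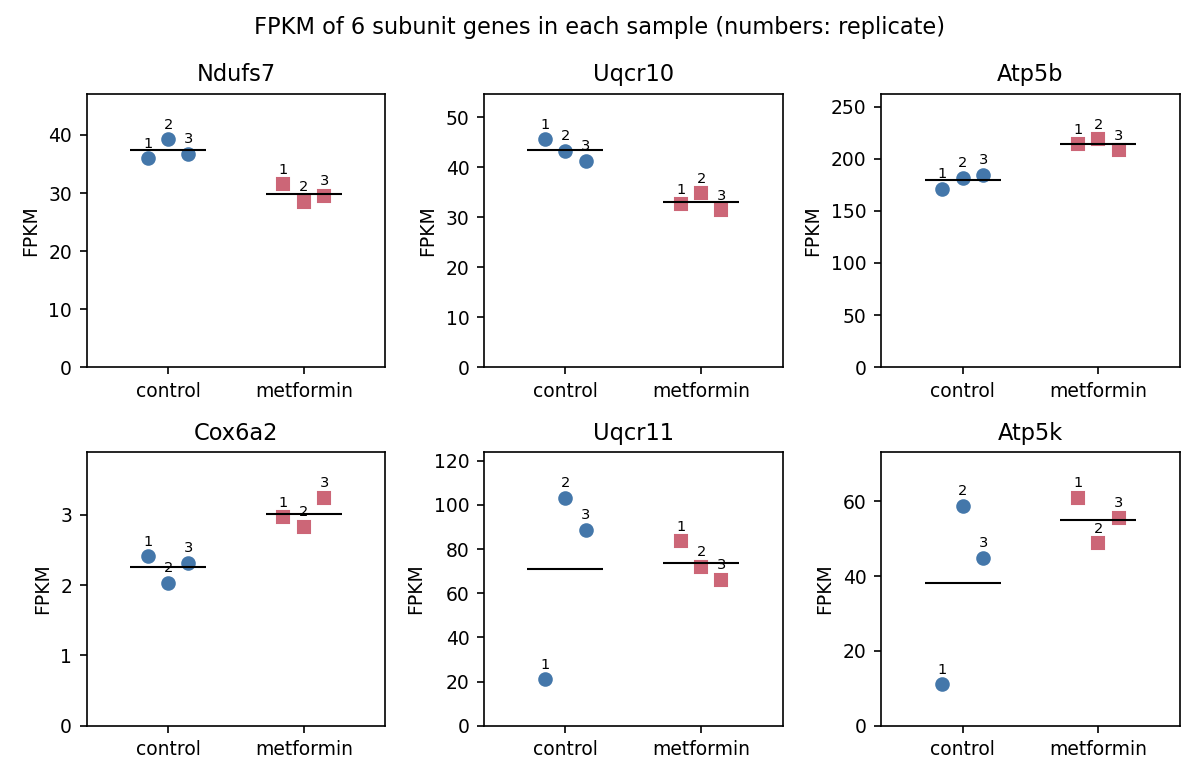
FPKM of Ndufs7, Uqcr10, Atp5b, Cox6a2, Uqcr11 and Atp5k in each sample, with the replicate number above each point and a line at each group mean. Ndufs7 and Uqcr10 are lower in all 3 metformin samples and Atp5b and Cox6a2 higher in all 3, whereas for Uqcr11 and Atp5k control replicate 1 (21.1 and 11.0 FPKM) lies far below the other 5 samples.

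Complex V, the ATP synthase, had a median log2 fold change of 0.21, the highest of the complexes with all samples though not without control replicate 2 (0.247, against 0.253 for complex IV), with 16 of 17 members tested and 0 called. Its summed level was 915, 1007 and 898.5 FPKM in the controls and 1096, 1073.5 and 1057.5 FPKM with metformin, without overlap, and the mean with metformin was 1.14 times that of the controls. Atp5b, the catalytic beta subunit at chr10:128083273-128090391 on the plus strand, was at 171, 182 and 185 FPKM in the controls and 214, 219 and 208 FPKM with metformin. Every metformin sample was above every control, but the adjusted p was 0.0766 (log2 fold change 0.25, standard error 0.08). The alpha subunit Atp5a1 was at 132, 139 and 131 FPKM against 139, 143 and 135 (0.05, adjusted p = 0.699), and Atp5c1, the gamma subunit of the rotor, at 99.9, 90.9 and 73.8 FPKM against 99.5, 102.5 and 101 (0.20, adjusted p = 0.291). The alpha and beta genes, whose products alternate in the catalytic head, thus had values of 0.05 and 0.25, a difference between them that was not tested. In the stator, Atp5f1 (subunit b) was at 28.6, 28.5 and 22.6 FPKM against 32.5, 32.8 and 32.6, above the controls in every metformin sample (0.29, adjusted p = 0.106), and Atp5o, which joins stator and head, likewise (0.34, adjusted p = 0.199).

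The c-ring of the rotor is made from 3 genes that encode one mature protein. Atp5g2 was at 39.8, 69.7 and 62.0 FPKM in the controls and 76.3, 76.3 and 80.0 FPKM with metformin, without overlap (0.47, adjusted p = 0.147), and Atp5g3 (0.23, adjusted p = 0.162) and Atp5g1 (0.18, adjusted p = 0.387) overlapped. Of their summed FPKM, Atp5g1, Atp5g2 and Atp5g3 held 8.69% ± 2.76, 45.7% ± 6.63 and 45.6% ± 3.89 (SD, n = 3) in the controls and 7.64% ± 0.351, 49.9% ± 1.61 and 42.4% ± 1.5 (SD, n = 3) with metformin, shares that differed by less than the sum of the SDs. The shares rest on listed lengths of 4912, 1675 and 2181 bases for Atp5g1, Atp5g2 and Atp5g3. Their longest transcripts are 4715, 753 and 862 bases, so the split between the 3 genes is uncertain. Atp5g1 shares 99.8% identity over 411 bases with the pseudogene Gm10039, which held 48.6% as many reads. A second row named Atp5o had 0 reads in every sample. Atp5s, a factor that carries an Atp5 symbol and is not counted with the complex, was at 2.02 to 3.11 FPKM (0.10, adjusted p = 0.647).

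Counted by overlap alone, 12 members (15.2%) had all metformin samples above all controls and 7 (8.86%) had all below, against 23.6% and 20.5% of all tested genes. By complex, complex I had 3 above and 5 below, complex II 1 and 0, complex III 1 and 2, complex IV 2 and 0, and complex V 5 and 0. Those of complex V were Atp5b, Atp5d, Atp5f1, Atp5g2 and Atp5o. Calls by limma were 2 in all, and no test compared the complexes.

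The controls spread more than the metformin samples for these genes. The median SD of the log2 values was 0.252 in the controls and 0.0663 with metformin, against 0.191 and 0.0657 over all tested genes. Control replicate 1 was the lowest of the 6 samples for 32 members (40.5%, against 27.9% of all tested genes) and the highest for 24 (30.4%, against 29.5%). Control replicates 2 and 3 also differed more for the members, by a median of 0.227 in size against 0.130 over all tested genes. For complex V the median deviation from the gene's mean was -0.005 in control replicate 2 and -0.191 in control replicate 3. Uqcr11, a small subunit of complex III, was at 21.1, 103 and 88.7 FPKM in the controls and 83.6, 72.0 and 66.1 FPKM with metformin. Atp5k, subunit e of the ATP synthase, was at 11.0, 58.9 and 44.9 FPKM against 61.0, 48.8 and 55.7, and Atp5d, the delta subunit, at 35.1, 88.3 and 85.3 FPKM against 99.8, 102 and 95.1. In each of these the first control was the lowest sample, and it set the sign of Uqcr11, whose log2 fold change went from 0.33 with all samples to -0.38 without it, and the size of Atp5k (0.80 to 0.09) and Atp5d (0.61 to 0.19). Its deviation from the mean of the other controls fell with GC content across the members (Spearman's rho -0.424, n = 79, against -0.668 over all tested genes) and rose with listed gene length (0.351 against 0.22). These are descriptions over genes that share 3 libraries, and the part of GC content in the results was not tested beyond the corrected fit.

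**Figure D4:**
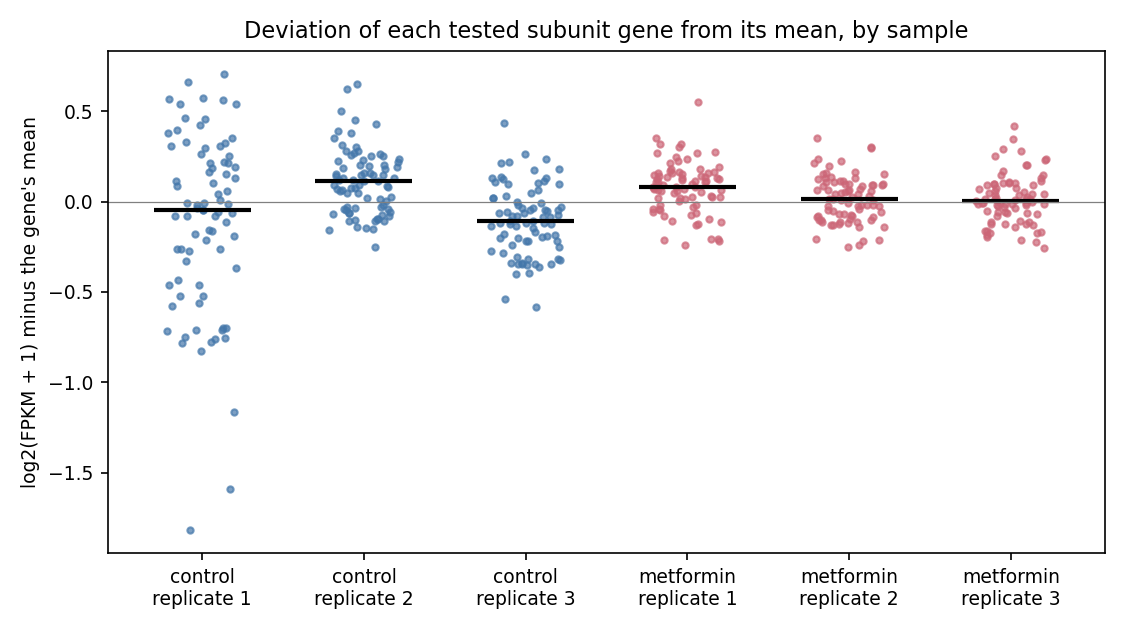
Log2(FPKM + 1) of each of the 79 tested subunit genes minus the gene's mean over the 6 samples, by sample, with a line at the median. Points of control replicate 1 spread the most and reach the lowest values, and the 3 metformin samples spread the least.

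**Figure D5:**
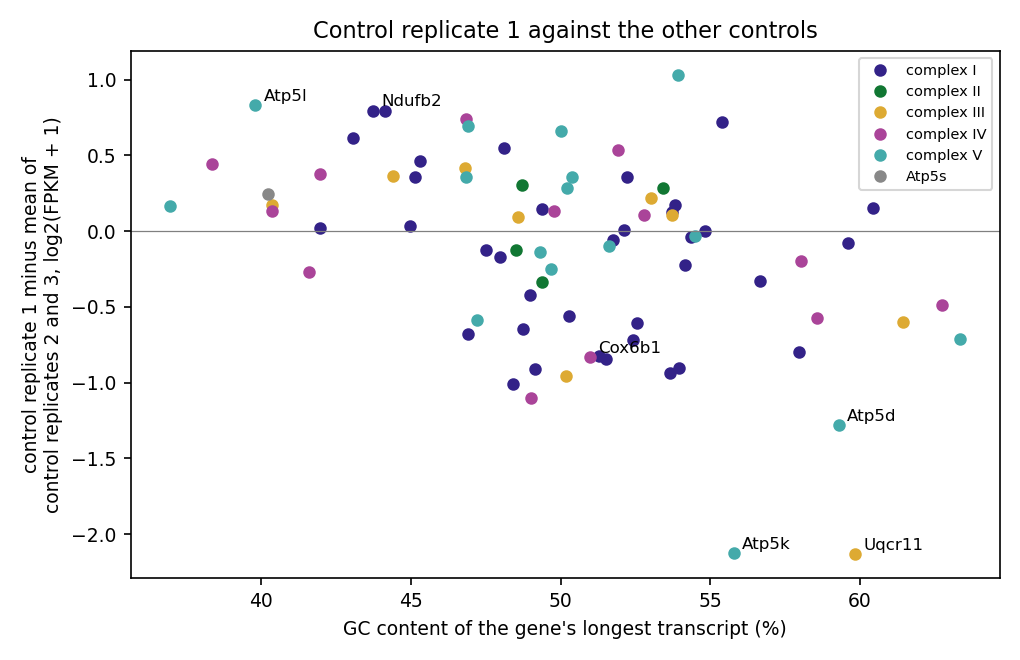
Difference between control replicate 1 and the mean of control replicates 2 and 3 on the log2(FPKM + 1) scale, against the GC content (%) of the longest transcript, with a point per tested subunit gene coloured by complex. Uqcr11 and Atp5k lie lowest, near -2.13, and the points tend downward from low to high GC content.

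Without control replicate 1, which leaves 2 controls, 13 members were called higher (16.5%, against 23.4% of all tested genes) and 9 lower (11.4%, against 20.4%), so the count of subunit calls depended on that library. The sign of the fold change turned for 23 of the 79. The log2 fold changes were then between -0.41 and 0.51, their median absolute value was 0.17 as before, and all 79 intervals lay within -1 and 1 and 62 within -0.5 and 0.5. Complex V had 7 genes called higher and 0 lower, namely Atp5b (0.22), Atp5c1 (0.30), Atp5d (0.19), Atp5f1 (0.35), Atp5g1 (0.30), Atp5g2 (0.23) and Atp5mpl (0.40). Complex I had 1 higher (Ndufa11, 0.23) and 4 lower, among them Ndufs7 (-0.34) and Ndufv1 (-0.33), complex II 1 and 0, complex III 1 higher (Uqcrfs1, 0.32) and 3 lower (Uqcr10, -0.35, Cyc1, -0.26, and Uqcr11, -0.38), and complex IV 3 higher (Cox7a2, 0.51, Cox6a2, 0.34, and Cox6b1, 0.27) and 2 lower (Cox6a1, -0.28, and Cox5b, -0.34). Adjusted p-values of the calls named here lay between 0.0054 (Ndufv1) and 0.0478 (Atp5mpl).

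Proteins that build the complexes or serve them were counted in the same way, beside the 13.2% higher and 9.28% lower of all tested genes, and their counts rested on control replicate 1 too. Of 46 assembly factors measured, 43 were tested, with 1 higher and 2 lower and a median log2 fold change of -0.07, and without control replicate 1 there were 2 higher and 10 lower (4.65% and 23.3%, against 23.4% and 20.4% of all tested genes). Uqcc3, needed for assembly of complex III, was at 20.5, 32.5 and 27.6 FPKM in the controls and 17.02, 15.33 and 13.87 FPKM with metformin, each metformin sample below each control (-0.75, adjusted p = 0.0237), and Tmem126b, of the complex I assembly machinery, fell from 6.38, 4.32 and 4.38 FPKM to 2.74, 2.73 and 3.07 (-0.63, adjusted p = 0.0222). Cox15, which makes the haem A of complex IV, rose from 6.839, 6.905 and 6.996 FPKM to 8.562, 8.601 and 8.774 (0.29, adjusted p = 0.0292). Among 14 genes for cytochrome c and ubiquinone synthesis 0 were higher and 1 was lower, Coq8a (-0.52, adjusted p = 0.0232), and without control replicate 1 there were 3 higher and 3 lower (21.4% each). Cytochrome c itself, Cycs, was at 13.6, 20.0 and 18.1 FPKM against 23.4, 23.2 and 23.4, above every control but not called (0.43, adjusted p = 0.0713), while without control replicate 1 it was called higher (0.28, adjusted p = 0.011).

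Of 10 regulators of respiratory genes 9 were tested, with 0 higher and 1 lower, and without control replicate 1 there were 2 higher (Gabpa, 0.21, adjusted p = 0.0354, and Gabpb1, 0.31, adjusted p = 0.0111) and 1 lower. Tfb2m, a transcription factor of the mitochondrial DNA, fell from 11.6, 9.91 and 9.44 FPKM to 7.66, 7.22 and 7.01 (-0.44, adjusted p = 0.0199), while Tfam, which packages that DNA, was not called (-0.17, adjusted p = 0.323). Ppargc1a, the coactivator PGC-1 alpha, was below the minimum in every sample (at most 0.0463 FPKM). Mitochondrial ribosomal proteins, another nuclear family of the organelle, had 1 called higher and 4 lower of 77 tested, with a median of -0.02, and 5 higher and 17 lower (6.49% and 22.1%) without control replicate 1.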

How the data were processed

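Per the labels, total RNA was extracted with Trizol and libraries were made with an Illumina TruSeq kit. The authors deposited FPKM values per gene and sample with the gene length, and their own comparison used DESeq2 1.20.0. The submitters' processing notes list Bowtie 0.12.2 and the builds mm8 and mm9 without a role, whereas coordinates of 81 of the 87 members were those of GENCODE M21 (GRCm38). Coordinates given are those of the deposited table. Multiplied by gene length, each deposited FPKM was a whole number of equal steps within its sample (tolerance 0.01), from which reads were recovered. The design had named a count model for raw counts only, so none was used. No other per-sample columns were left aside.

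The table was fitted whole with limma 3.58.1 (R 4.3.3, intensity trend), with a pseudocount of 1 and group as the term, over 12681 genes. The share called among changes as small as those of the subunits was not tested. Alternatives tried were total-read scaling, a pseudocount of 0.1, removal of the filter, a minimum of 10 reads in each sample, voom, corrections for GC content and length (splines with 5 degrees of freedom), a replicate block and leaving out each replicate. Same-numbered samples had deviations with correlations of -0.0533, 0.000265 and -0.0549 and were not treated as pairs. Listed length equalled the merged M21 exons for 81 members and was over 2 times the longest transcript for 9, which lowers their FPKM. Near-identical copies (BLAST+ 2.17.0, 95% identity over 200 bases) were found for 24 members, and 38 overlapped another gene, so reads could be shared. Members, lists and motifs were chosen with earlier results of these data known. Genes named are the catalytic and core subunits, the called members, isoform sets and, chosen after their values were seen, the genes near a threshold or with the widest spread and those called without control replicate 1 or with a GC correction. 1 gene is not reported by name here. Figures were drawn with matplotlib 3.10.9.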

Additional observations from a re-analysis of the deposited data

How the results depend on the processing

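All genes called lower were 1177, and 698 with the replicate block, 2433 with the GC correction, 2607 with the GC and length correction and 1888 with the block and the GC correction. Leaving out each replicate gave 938 to 2969 higher and 495 to 2590 lower, with both maxima without control replicate 1. Of all calls 58.7% were higher, against 45.9% with the GC correction, 44.5% with the GC and length correction and 47.4% with the block and the GC correction, which moved the median of all genes by -0.05.

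Subunits called higher were 0, and 1 when 10 reads were required in each sample (Cox6a2), 4 with the GC correction, 6 with the GC and length correction, 1 with the block and the GC correction, and 0 to 13 over the fits leaving out each replicate. With the GC correction the 4 were Atp5b, Atp5f1, Atp5g2 and Ndufa11, to which GC and length added Uqcrb and Uqcrfs1. Subunits called lower were 2, and 4 under total-read scaling, 0 with the replicate block, 6 with the GC correction, 6 with the GC and length correction, 4 with the block and the GC correction, and 0 to 9 over the fits leaving out each replicate, with 0 in each fit without control replicate 2 or any metformin replicate. The 6 included Ndufa6, Ndufab1, Ndufv1, Uqcr10 and Uqcrc2 with either correction. Calls rose over all 12681 tested genes too, from 1670 higher and 1177 lower. They were 2062 and 2433 with the GC correction and 2089 and 2607 with GC and length. The block and the GC correction together gave 1703 and 1888. With the paired replicate block the log2 fold changes of Ndufs7 and Uqcr10 were as before (-0.31 and -0.39) and the adjusted p was 0.144 and 0.0805.

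The median of complex II was 0.11, and 0.087 under total-read scaling, 0.050 with the GC correction, with or without the block, and 0.063 with the GC and length correction. With the GC correction the medians of complexes I, III, IV and V were -0.0053, -0.072, 0.025 and 0.15, against 0.04, -0.03, 0.09 and 0.21, and without the filter that of complex IV was 0.0058. Leaving out each replicate moved the medians between -0.060 and 0.11 for complex I, 0.075 and 0.13 for II, -0.087 and 0.047 for III, 0.060 and 0.25 for IV, and 0.13 and 0.25 for V.

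Of the 79 tested subunits, 33 changed sign in at least 1 alternative, 0 of them called with all samples, and 6 did so in an alternative that kept all samples. Among them were 8 of the 32 catalytic, called and isoform genes. Cox5b was -0.0027 under total-read scaling, -0.040 with the GC correction, with or without the block, and -0.017 with the GC and length correction. Ndufs1 was -0.013 with the GC correction, with or without the block, and -0.042 with the GC and length correction. Leaving out each replicate, values ranged from -0.34 to 0.26 for Cox5b, -0.090 to 0.28 for Cox8a, -0.26 to 0.047 for Cyc1, -0.044 to 0.17 for Ndufs1, -0.051 to 0.14 for Ndufv2, -0.13 to 0.035 for Sdhb, -0.028 to 0.16 for Sdhd and -0.080 to 0.043 for Uqcrc1. The cause was not tested. With 3 samples a group, intervals leave changes of about 0.5 on the log2 scale open for most subunits.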
